A study of Caenorhabditis elegans with 6 samples.

Results

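RNA-binding regulators of maternal mRNA translation were examined in dissected *Caenorhabditis elegans* gonads, in wildtype (N2) animals and in *set-2(bn129)* mutants. The 10 genes, *oma-1*, *oma-2*, *mex-1*, *mex-3*, *mex-5*, *mex-6*, *pie-1*, *pos-1*, *spn-4* and *lin-41*, were picked by WormBase symbol for their known roles. Earlier results of these data were known when they were picked. All 10 were found among the 46772 gene rows of the count tables and passed the filter on low counts, which kept 9431 genes. Each genotype is represented by 3 libraries from young adult hermaphrodite gonads, cut at the bend of the gonad arm so that the distal part was recovered from a few pooled animals per sample. N2 is the standard laboratory strain. *bn129* is a loss-of-function allele of *set-2*, which encodes the SET1-type H3K4 methyltransferase of the COMPASS complex, and the mutants were homozygotes born to heterozygous mothers in a strain that keeps the allele over the qC1 balancer. The labels name no treatment. They call the libraries biological replicates without saying whether these came from separate cultures, so p-values measure only the spread between these libraries, which may be technical.

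In the worm germline, transcription and protein synthesis are separated in time. Germ cells in the distal arm transcribe maternal mRNAs that are kept translationally silent, largely through their 3′ UTRs, and are used in oocytes and early embryos. OMA-1, OMA-2, MEX-1, MEX-5, MEX-6, PIE-1 and POS-1 bind RNA through a pair of CCCH zinc fingers, MEX-3 through KH domains and SPN-4 through an RNA recognition motif, while LIN-41 is a TRIM-NHL protein that sets oocyte identity. The counts here are of transcripts and say nothing of protein levels.

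Library totals ran from 23403396 to 30724547 counts, and single members held between 1652 and 18310 counts per library. *set-2* itself had 149, 161 and 152 CPM (counts scaled to library size, with TMM factors) in wildtype and 87.3, 94.1 and 99.2 in mutant replicates 1, 2 and 3, lower in all 3 mutant libraries (log2 fold change -0.71, edgeR adjusted p = 2.9e-06). Of 14 sperm markers, 13 had too few counts to be tested, and of these the 8 *msp* genes, which encode the major sperm protein, had 2 counts or fewer in every library. The sperm markers summed to 0.330 to 0.425 CPM in wildtype and 1.51 to 2.39 CPM in mutant libraries. Most of this came from *spe-9*, the 1 sperm marker tested (means of 0.222 and 1.93 CPM). Somatic gonad markers summed to 59.4 to 77.0 CPM in wildtype and 35.1 to 38.1 CPM in mutant libraries. Of 4 tested, 1 was lower past the adjusted p-value, *inx-8*, with means of 51.2 and 21.7 CPM. The 3 that did not pass included *lim-7*, the 1 gene that was higher (2.36 and 3.25 CPM). Summed oocyte markers reached 12822 to 13057 CPM in wildtype and 12497 to 12830 CPM in mutant libraries, with 0 of 10 markers higher and 2 lower past the adjusted p-value. The lower oocyte markers were *perm-2* (means of 168 CPM in wildtype and 100 in the mutant) and *perm-4* (183 and 100 CPM), and 8 did not pass. Markers of distal germ cells summed to 1058 to 1066 CPM in wildtype and 1119 to 1135 CPM in mutant libraries. Of these 8 genes, 1 was higher and 1 lower past the adjusted p-value, and 6 did not pass. The higher gene was *him-3* (means of 130 CPM in wildtype and 171 in the mutant) and the lower *sygl-1* (18.2 and 9.64 CPM). Muscle and intestine markers were lower in mutant libraries for 16 of the 16 genes tested, and their sums were 410, 757 and 956 CPM in wildtype replicates 1, 2 and 3 and 212 to 305 CPM in mutant libraries. Ribosomal RNA genes held 14.1%, 14.9% and 13.6% of the counts in wildtype and 8.06%, 9.26% and 10.6% in mutant replicates 1, 2 and 3.

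Of the 10 regulators, 5 were lower and 1 was higher in *set-2* gonads at an adjusted p-value of 0.05 (edgeR quasi-likelihood test, Benjamini-Hochberg adjustment over all genes tested). The lower genes were *mex-5*, *mex-1*, *lin-41*, *oma-2* and *mex-3*, and the higher gene was *pos-1*. Over all genes tested 41.4% passed this limit, 20.3% higher and 21.1% lower, and among the 2712 genes within the expression range of the regulators 48.6% passed it, so the share of 6 of 10 by itself is near the background. *mex-5* was the only member whose change also exceeded 0.58 on the log2 scale, a limit passed together with the adjusted p-value by 15.3% of all genes tested and by 2.25% of genes in that expression range. The libraries of the genotypes did not overlap for 8 of the 10 genes, against 52.9% of all genes and 1628 of the 2712 genes in that range. The median log2 fold change of the 10 genes was -0.11, and it was -0.00090 over all genes tested. In bulk tissue, fewer cells of a kind and less RNA per cell cannot be told apart.

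**Figure D1:**
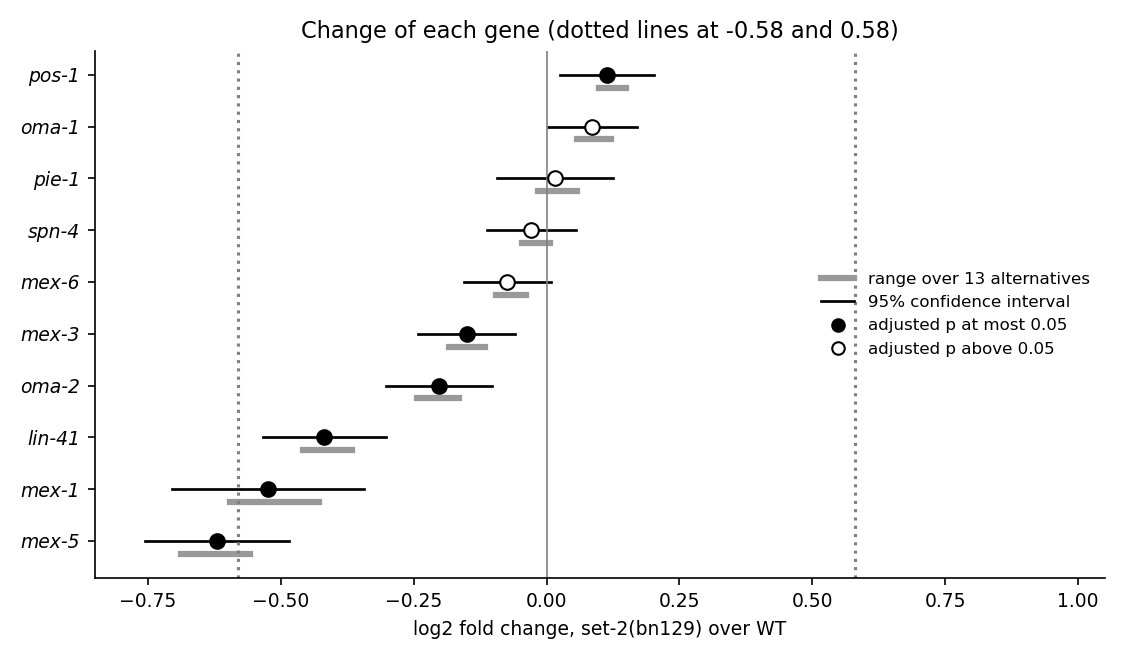
Log2 fold change of each regulator, *set-2(bn129)* over wildtype (points), with the 95% confidence interval (thin line) and the range over 13 alternative settings (grey bar). *mex-5*, *mex-1* and *lin-41* lie farthest to the left, at -0.62, -0.52 and -0.42, and the intervals of *pie-1*, *spn-4* and *mex-6* include 0.

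*mex-5* and *mex-6* encode closely related CCCH proteins that act redundantly in the embryo to restrict germ plasm proteins to the posterior. *mex-5* had 357, 383 and 342 CPM in wildtype replicates 1, 2 and 3, and 215, 233 and 256 CPM in the mutant replicates. All mutant libraries lay well under the lowest wildtype library, and the fold was 0.651 (log2 fold change -0.62, standard error 0.062, edgeR adjusted p = 3.0e-05). Without wildtype replicate 2 or without mutant replicate 1 the log2 fold change of *mex-5* was -0.58 and -0.56, just short of the 0.58 limit. *mex-6* had 261, 249.6 and 253 CPM in wildtype and 239, 249.5 and 238 CPM in the mutant. Its genotypes were separated only narrowly, between wildtype and mutant replicate 2, and the change did not pass (log2 fold change -0.07, 95% confidence interval -0.16 to 0.0080, edgeR adjusted p = 0.13).

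*mex-1*, whose CCCH product is needed for the segregation of germ granules in the early embryo, had 144, 152 and 127 CPM in wildtype and 84.97, 102 and 107 CPM in mutant libraries. This was a fold of 0.696 (log2 fold change -0.52, standard error 0.082, edgeR adjusted p = 5.4e-04). *mex-1* was also the most variable of the 10, with a coefficient of variation of 11.9% among mutant libraries, and its log2 fold change was -0.60 without wildtype replicate 3 and -0.59 without mutant replicate 3. These last values passed the fold limit that the full set of libraries did not reach.

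LIN-41 represses the translation of maternal mRNAs during oocyte growth, and loss of it sends oocytes prematurely into mitosis and somatic differentiation. *lin-41* had 483, 471 and 440 CPM in wildtype and 323, 354 and 366 CPM in mutant libraries, with a clear gap between the genotypes. The fold was 0.748 (log2 fold change -0.42, standard error 0.053, edgeR adjusted p = 1.4e-04).

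OMA-1 and OMA-2 are redundant factors required for oocyte maturation. For *oma-2*, wildtype libraries held 208, 199.5 and 188 CPM and mutant libraries held 165, 175 and 177 CPM. The groups did not overlap (log2 fold change -0.20, standard error 0.045, edgeR adjusted p = 0.0045). *oma-1* lay in the opposite direction, with 172, 176 and 165 CPM in wildtype and 179, 186 and 180.1 CPM in the mutant. Although every mutant library was above every wildtype library, the change of *oma-1* did not pass (log2 fold change 0.09, 95% confidence interval 0.0028 to 0.17, edgeR adjusted p = 0.090).

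MEX-3 represses *pal-1* mRNA in the germline and anterior embryo. *mex-3* had 289.8, 289 and 278 CPM in wildtype and 247, 270.1 and 256 CPM in mutant libraries, a small decrease without overlap (log2 fold change -0.15, standard error 0.041, edgeR adjusted p = 0.014). The call was lost narrowly without wildtype replicate 2 (adjusted p = 0.051) and without mutant replicate 1 (adjusted p = 0.052).

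POS-1 regulates maternal mRNAs in the posterior embryonic cells. *pos-1* had 438, 418 and 423 CPM in wildtype and 470.3, 470.0 and 444 CPM in mutant libraries, all of the latter above the former (log2 fold change 0.11, standard error 0.040, edgeR adjusted p = 0.040). Its adjusted p-value rose over 0.05 without wildtype replicate 2 (0.15), wildtype replicate 3 (0.11), mutant replicate 1 (0.095) or mutant replicate 2 (0.097). The only upward call among the regulators was therefore lost in 4 of the 6 fits that left out a library.

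SPN-4, which works with POS-1 on embryonic mRNAs such as that of *glp-1*, is encoded by the gene with the most counts of the 10. *spn-4* had 616, 611 and 620.0 CPM in wildtype and 619.6, 603 and 588 CPM in the mutant, with overlapping libraries (log2 fold change -0.03, 95% confidence interval -0.11 to 0.055, edgeR adjusted p = 0.58). PIE-1 blocks transcription in embryonic germline cells. *pie-1* had 69.3, 75.1 and 68.2 CPM in wildtype and 68.8, 71.3 and 74.8 CPM in mutant libraries, also overlapping (log2 fold change 0.02, 95% confidence interval -0.093 to 0.12, edgeR adjusted p = 0.82). For both genes a change of 0.58 lay outside the confidence interval. Over all 10, the intervals reached from -0.76 to 0.20, and those of 2 genes, *mex-5* and *mex-1*, included -0.58.

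**Figure D2:**
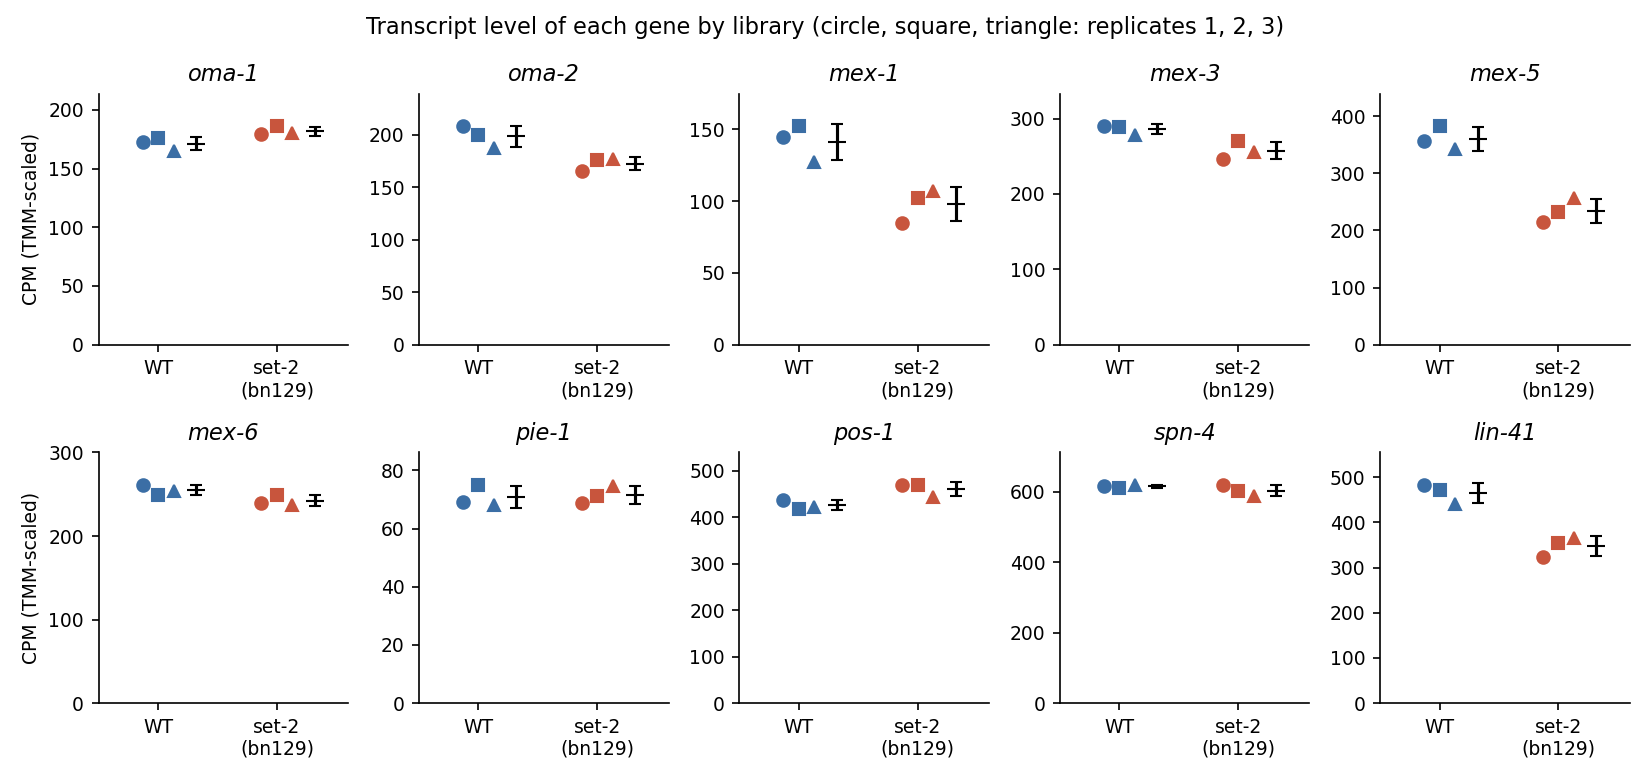
TMM-scaled CPM of the 10 genes in each library, wildtype in blue and *set-2(bn129)* in red, with symbols for replicates 1, 2 and 3 and black marks for the mean and SD of 3 libraries. *mex-5* went from a mean of 360.5 to 234 CPM, while *spn-4* and *pie-1* overlap between genotypes.

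The paralog pairs were compared within libraries, since a ratio of 2 genes in a library does not depend on scaling. The *mex-5*/*mex-6* count ratio was 1.36, 1.53 and 1.35 in wildtype and 0.897, 0.932 and 1.08 in mutant libraries. *mex-5* thus held the larger count in every wildtype library, and in 1 of 3 mutant libraries. The mean log2 ratio of wildtype libraries was 0.50 ± 0.10 and that of mutant libraries -0.050 ± 0.14 (SD, n = 3 each), a difference of -0.55 (exact permutation test, two-sided, p = 0.1, the smallest p that 3 libraries against 3 allow). The *oma-1*/*oma-2* ratio moved less, from 0.829, 0.884 and 0.879 in wildtype to 1.09, 1.06 and 1.02 in the mutant. In each wildtype library *oma-2* held more counts than *oma-1*, and in each mutant library fewer. The log2 difference was 0.29 (exact permutation test, two-sided, p = 0.1, again the smallest possible). Adjusted over the 2 pairs, both p-values stayed at 0.1.

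Reads divided between paralogs would not change the sum of a pair, but reads removed for a low mapping quality would lower it. Such losses were not measured. Summed over the pair, *mex-5* and *mex-6* were lower in the mutant without overlap. The sums were 618, 632 and 596 CPM in wildtype and 454, 482 and 494 CPM in the mutant, where the mean was 0.775 times that of wildtype. For *oma-1* and *oma-2* together the libraries overlapped, with 380.3, 376 and 353 CPM in wildtype and 344, 361 and 357 CPM in the mutant. The mean of that sum was 369.6 ± 14.9 CPM in wildtype and 354 ± 8.90 CPM in the mutant (SD, n = 3).

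**Figure D3:**
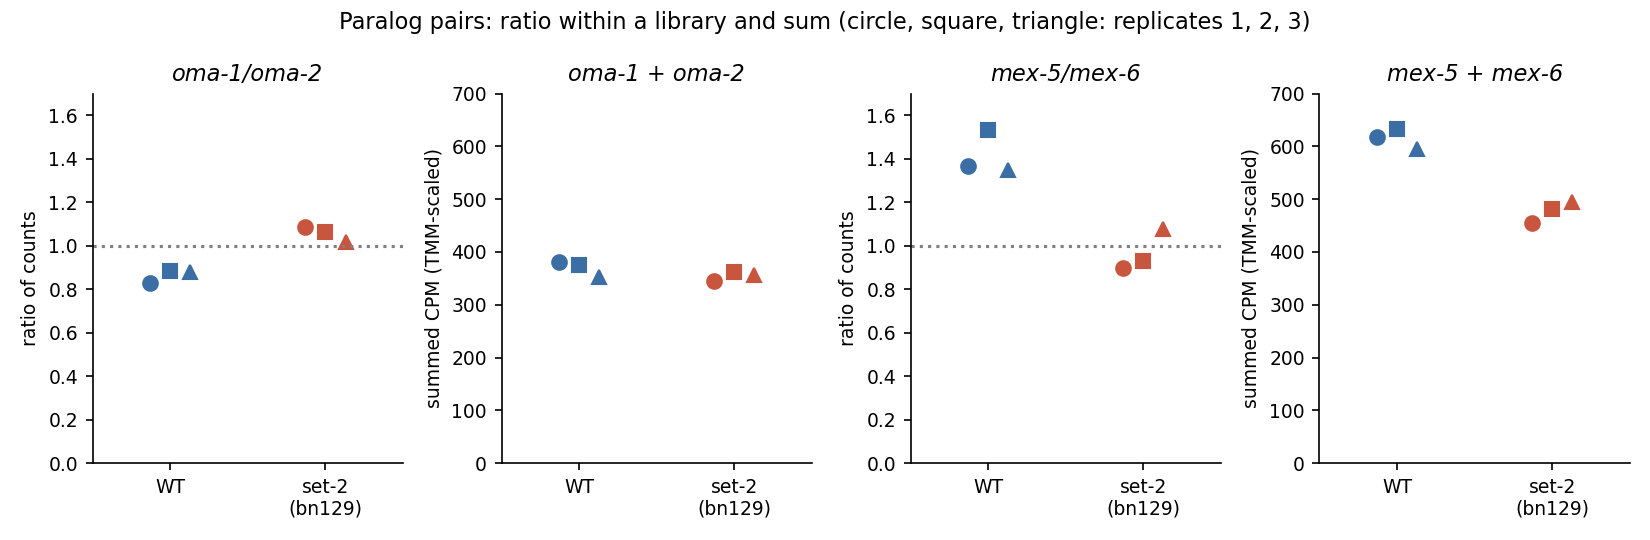
For each paralog pair, the ratio of counts within a library (dotted line at equal counts) and the summed TMM-scaled CPM, by genotype. The *mex-5*/*mex-6* ratio lies between 1.35 and 1.53 in wildtype and between 0.897 and 1.08 in the mutant, and the *oma-1* plus *oma-2* sums overlap.

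To compare levels between genes, CPM were divided by the exon length of each gene. Per kb of exon, *spn-4* and *pos-1* stood highest in wildtype gonads, with 404 ± 2.98 and 382 ± 9.14 CPM per kb (SD, n = 3), within the top 2.03% of the 9399 genes ranked. *mex-5* came next with 182 ± 10.4 CPM per kb. *mex-3*, *mex-6* and *oma-2* followed between 128 and 140.0 CPM per kb, and neighbours in that order overlapped between libraries. *lin-41* and *oma-1* (96.6 and 95.1 CPM per kb) overlapped as well, despite the much larger count of *lin-41*, which has 4.81 kb of exon against 1.80 kb. *mex-1* (75.3 CPM per kb) and *pie-1* (63.5 CPM per kb) were lowest, and *pie-1* was still among the top 21.6% of genes ranked, where the median was 19.7 CPM per kb. The highest and lowest members were 6.36-fold apart in wildtype and 7.89-fold apart in the mutant.

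In the mutant the order changed at several places. *pos-1* (413 ± 13.4 CPM per kb) and *spn-4* (396 ± 10.3 CPM per kb) exchanged places at the top, although their mutant libraries overlapped. *mex-5* dropped to 119 ± 10.6 CPM per kb (SD, n = 3), from well above *mex-3* and *mex-6* to a level that overlapped those of *mex-6*, *mex-3* and *oma-2*. *oma-1*, level with *lin-41* in wildtype, exceeded it in every mutant library (99.5 to 103 against 67.2 to 76.2 CPM per kb). *mex-1* became the lowest of the 10 at 52.3 ± 6.25 CPM per kb, with all its libraries under those of *pie-1*.

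**Figure D4:**
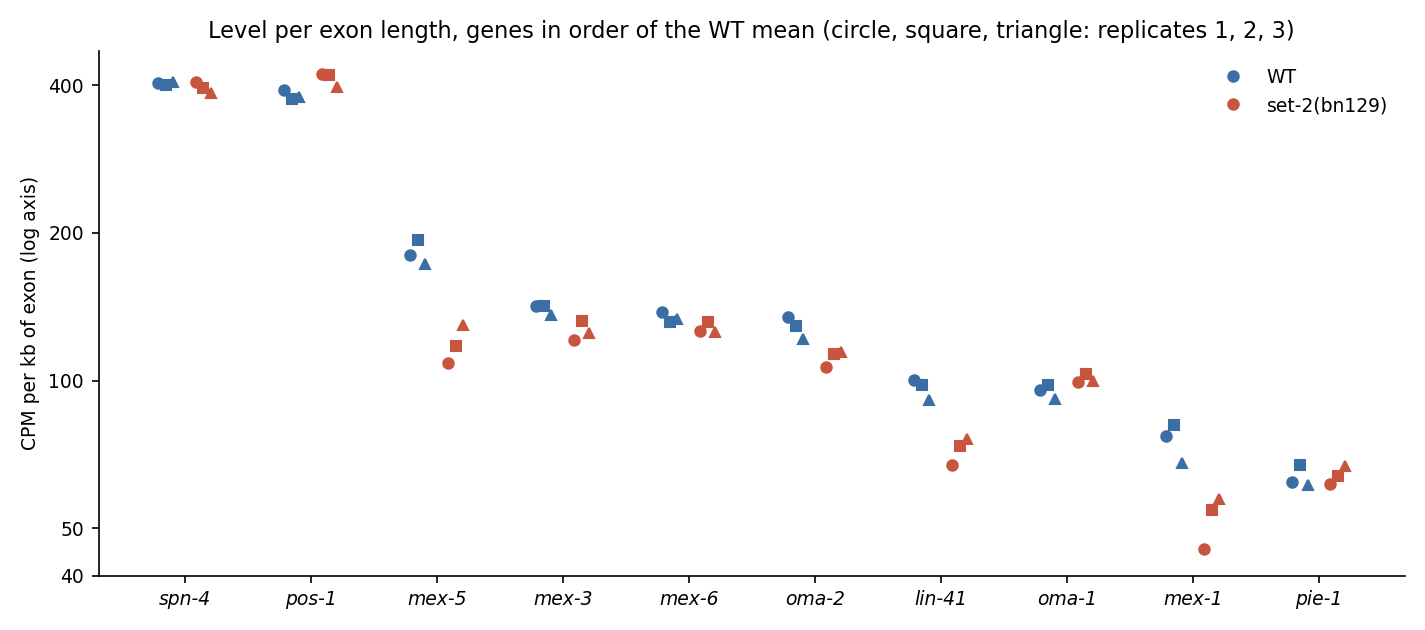
CPM per kb of exon (log axis) for the 10 genes in order of their wildtype mean, wildtype libraries in blue and *set-2(bn129)* libraries in red. *spn-4* and *pos-1* lie near 400 CPM per kb in both genotypes (404 and 382 in wildtype), and *mex-5*, *lin-41* and *mex-1* show the widest gaps between genotypes.

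The genes are scattered over chromosomes I to V, and 0 of 10 lie on X, where 11.9% of the genes tested are found. On WBcel235, *mex-5* (WBGene00003230) spans 13353723 to 13356104 and *oma-1* (WBGene00003864) spans 8888976 to 8890999 on chromosome IV. *mex-1* (WBGene00003228, 11968637 to 11972330) and *mex-6* (WBGene00003231, 9524174 to 9526359) are on chromosome II, *pie-1* (WBGene00004027, 12426893 to 12429195) is on III, and *mex-3* (WBGene00003229, 127285 to 134270) and *lin-41* (WBGene00003026, 9334800 to 9342496) are on I. Chromosome V carries *oma-2* (WBGene00003865, 8029439 to 8031214), *pos-1* (WBGene00004078, 8414086 to 8415254) and *spn-4* (WBGene00004984, 6783187 to 6784903). Apart from that of *pie-1*, the gene models have long 3′ UTRs, the part of these mRNAs through which translational regulators commonly act. The longest annotated 3′ UTR of the 10 genes had a median of 466.5 bp, against 131 bp over 16805 protein-coding genes with one. Of the 10 genes, 9 were above that median, and genes of a like expression level were not compared. *lin-41* (1165 bp), *mex-3* (688 bp) and *mex-5* (561 bp) had the longest and *pie-1* (108 bp) the shortest. The encoded proteins range from 264 residues for POS-1 to 1147 for LIN-41, with the pairs of paralogs close in length (407 and 393 residues for OMA-1 and OMA-2, 468 and 467 for MEX-5 and MEX-6). No member shares exon positions with a gene on its own strand, and *mex-1*, *pie-1* and *spn-4* share 18, 24 and 8 bp with a gene on the other.

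The share of ribosomal RNA differed between the genotypes along with the lowered genes. In the wildtype libraries, *mex-5* and *mex-1* were highest in replicate 2 and lowest in replicate 3, as was the share of ribosomal RNA (14.9% and 13.6%). Among mutant libraries both genes were lowest in replicate 1 and highest in replicate 3, again as was the ribosomal RNA share (8.06% and 10.6%). Of the 10 regulators, 3 (*mex-1*, *mex-5* and *pie-1*) followed the order of the ribosomal RNA share within both genotypes, against 4.81% of all genes tested. *mex-1* and *mex-5* were among the 5 lower regulators and *pie-1* was not. Of all genes that were lower past the adjusted p-value, 10.3% followed this order. *lin-41* and *oma-2* followed it in the mutant libraries but not in wildtype. All mutant libraries had a lower ribosomal RNA share than all wildtype libraries, so this share and the genotype cannot be told apart in these data. With the ribosomal RNA share as a covariate, a fit chosen after the data were seen, none of the regulators had an adjusted p-value of 0.05 or less (0 of 10 by edgeR), and 1, *pie-1*, had an unadjusted p of 0.025, while 0.976% of all genes passed the adjusted p-value. The log2 fold change of *mex-5* was then -0.10 (standard error 0.10), that of *lin-41* -0.080 (standard error 0.13), and that of *mex-1* turned positive at 0.17 (standard error 0.14). In the same fit the standard errors were larger than without the covariate (0.10 against 0.062 for *mex-5*), and *set-2* itself stood at -0.36 on the log2 scale (edgeR adjusted p = 0.15).

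**Figure D5:**
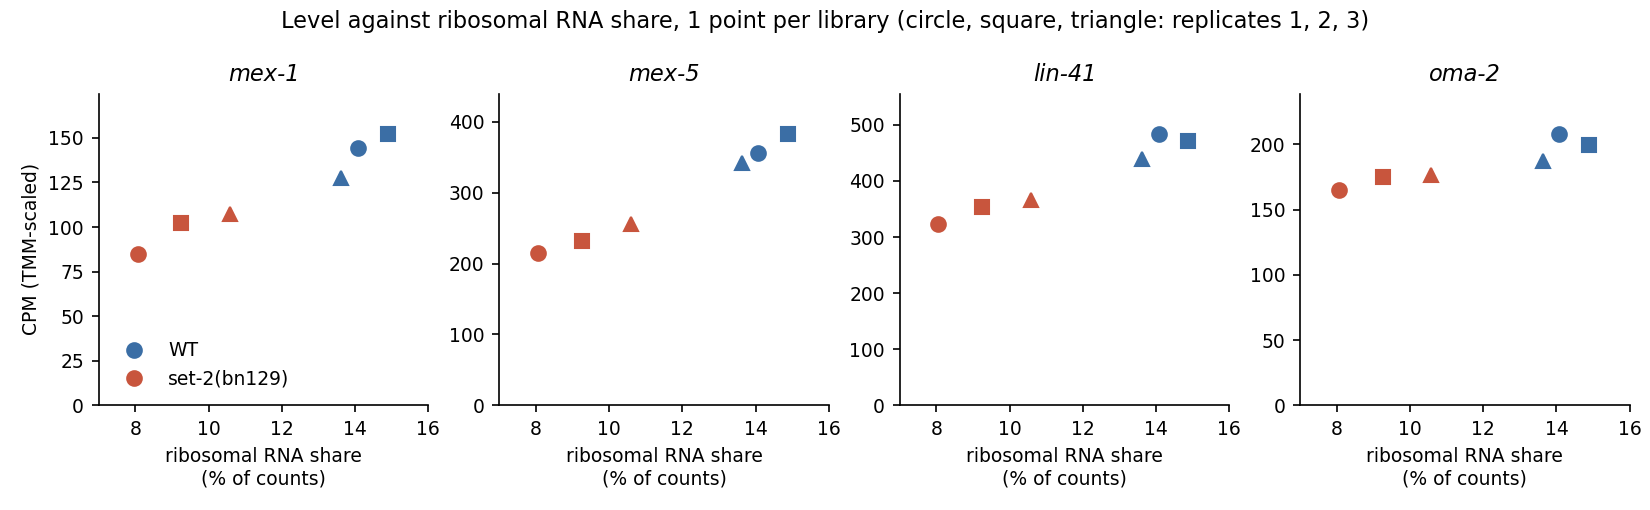
TMM-scaled CPM of *mex-1*, *mex-5*, *lin-41* and *oma-2* against the share of counts on ribosomal RNA genes, 1 point per library, wildtype in blue and *set-2(bn129)* in red. Mutant libraries lie at 8.06% to 10.6% and wildtype libraries at 13.6% to 14.9%, and *mex-1* and *mex-5* rise with the share within each genotype.

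Muscle and intestine markers were also lower in the mutant. In wildtype replicates 1, 2 and 3 the summed marker level was 410, 757 and 956 CPM, where *mex-5* had 357, 383 and 342 CPM and *lin-41* had 483, 471 and 440 CPM. All mutant libraries had a lower sum (212 to 305 CPM) than all wildtype libraries, so this level and the genotype cannot be told apart. The part of these markers in the result was not tested, and the following fit cannot settle it. With the level of these markers as a covariate, also chosen after the data were seen, *mex-5*, *lin-41*, *mex-1* and *oma-2* were lower past the adjusted p-value, at -0.71, -0.56, -0.69 and -0.34 on the log2 scale (edgeR quasi-likelihood test, adjusted p = 0.0026, 0.0026, 0.011 and 0.015), and *mex-3* and *pos-1* were not (adjusted p = 0.21 and 0.50). Over all genes, 12.1% passed in that fit.

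Further genes of the pathway were taken from lists written from general knowledge, with earlier results of these data known. Over all genes tested, 20.3% were higher and 21.1% lower past the adjusted p-value, and differences of the lists from these shares were not tested. There were 17 kinases and degradation factors that act on these proteins or on the timing of their activity. Of these, 4 were higher, 5 were lower and 8 did not pass, with a median log2 fold change of -0.036. *gsk-3*, one of the kinases that mark OMA-1 for degradation after the first embryonic division begins, had 40.4, 45.1 and 39.7 CPM in wildtype and 18.4, 19.9 and 24.9 CPM in the mutant (log2 fold change -0.98, edgeR adjusted p = 3.5e-05). *kin-19*, encoding a casein kinase I involved in the same degradation, fell from 156 ± 5.48 to 110 ± 14.1 CPM (SD, n = 3, edgeR adjusted p = 3.1e-04). *par-1*, whose kinase phosphorylates MEX-5 and sets up its gradient in the embryo, fell from 141 ± 4.26 to 108 ± 4.70 CPM (SD, n = 3, edgeR adjusted p = 6.2e-05). All 3 genes were highest, among mutant libraries, in replicate 3, the mutant library with the most ribosomal RNA. Among wildtype libraries all 3 were highest in replicate 2, while *kin-19* was lowest there in replicate 1 (152, 162 and 154 CPM) and not in replicate 3. These 3 genes were named for the size of their changes, and a link of their levels to the ribosomal RNA share was not tested.

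Of 21 protein partners and other germline RNA regulators, 2 were higher, 9 lower and 10 did not pass (median log2 fold change -0.049). The shares over all genes tested were 20.3% higher and 21.1% lower, together 41.4%. The largest decreases were those of *atx-2*, *car-1* and *cgh-1*, which encode an ataxin-2 homolog, an LSM14 homolog and a DDX6-type RNA helicase of germline RNP particles. *cgh-1* had 1142, 1224 and 1123 CPM in wildtype and 697, 719.7 and 937 CPM in mutant libraries (log2 fold change -0.57, edgeR adjusted p = 6.9e-04). *car-1* had 740.0, 767 and 670.2 CPM in wildtype and 396, 426 and 585 CPM in the mutant (log2 fold change -0.63, edgeR adjusted p = 0.0014). For *atx-2* the values were 188, 196 and 171 CPM in wildtype against 105, 115.6 and 133 CPM (log2 fold change -0.65, edgeR adjusted p = 8.9e-05). In all 3 genes the groups did not overlap and mutant replicate 3 lay nearest to wildtype.

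Transcripts known as targets of the regulators gave changes in both directions, with 3 higher, 2 lower and 7 not past the adjusted p-value among 12 (median log2 fold change 0.035). Genes as a whole also changed in both directions, with 41.4% past the adjusted p-value, so these calls by themselves are near the background. *meg-1*, a germ granule gene, had 95.6, 90.9 and 90.5 CPM in wildtype and 134, 141 and 125 CPM in the mutant (log2 fold change 0.53, edgeR adjusted p = 1.4e-05). *cdc-25.3*, a phosphatase gene of the cell cycle, had 25.9, 26.2 and 29.9 CPM in wildtype and 38.9, 38.3 and 36.7 CPM in the mutant (log2 fold change 0.47, edgeR adjusted p = 2.7e-04). *apx-1*, which encodes a Notch ligand of the early embryo, fell from 39.3, 40.9 and 34.1 CPM to 20.9, 23.9 and 24.7 CPM (log2 fold change -0.72, edgeR adjusted p = 8.5e-05). *spn-4* is counted both here and among the 10 regulators. Translation of these mRNAs was not measured.

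Among 11 other CCCH finger genes, 4 had enough counts to be tested, and 3 of the remaining 7 had no counts in any library. *gla-3*, which encodes a CCCH protein of the germline, was the one at a level like those of the 10 regulators, with 168, 169.99 and 168 CPM in wildtype and 154, 155 and 158 CPM in the mutant (log2 fold change -0.12, edgeR adjusted p = 0.016). *ccch-1* was lower and *moe-3* higher (-1.05 and 0.93 on the log2 scale, edgeR adjusted p = 0.010 and 0.041), both from wildtype means under those of any of the 10 regulators, at 3.21 and 0.597 CPM. The differences between these lists and the 10 regulators were not tested.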

How the data were processed

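Total RNA from dissected gonads was sequenced as single 50-base reads after depletion of ribosomal RNA, in 3 libraries per genotype. One label field calls the RNA polyadenylated, while the extract protocol and the paper describe ribosomal RNA depletion, which is used here. The protocol describes libraries that keep strand. The authors mapped reads to WS254 with STAR 2.4.1d, removed low mapping qualities with SAMtools 0.1.19 and deposited raw counts per gene from HTSeq 0.7.2, whose mode and strand setting are not given in the sources used here. Reads shared by paralogs could be lost or divided, which was not tested. A further deposited table holds the authors' numbers of genes past each step of their own comparison and was not used.

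Counts were tested with edgeR 4.0.16 (R 4.3.3; filterByExpr, TMM, glmQLFit and glmQLFTest, genotype as the only term). Totals were 23403396 to 30724547 counts, with 0 rows without a gene. Symbols came from WormBase identifiers, and positions from Ensembl's WBcel235 annotation. A call is an adjusted p-value of at most 0.05, with and without a log2 fold change of 0.58. Standard errors come from the coefficient and the F statistic, and all intervals are 95%. The fit was tested on simulated data. All 10 members are named, and from other lists at most the 3 largest changes past the adjusted p-value. Members and lists were chosen with earlier results of these data known. Alternatives were other scalings, filters, DESeq2 1.42.0, the replicate number as a block, fits without each library in turn, and 2 covariates added after the data were seen. Libraries with the same replicate number did not deviate together (correlations of -0.086, -0.048 and -0.17), so the numbers were not taken as pairs.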

Additional observations from a re-analysis of the deposited data

How the results depend on the processing

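Over 13 other settings for each of the 10 genes, which leave out the 2 covariate fits, 118 values kept direction and call. The exceptions were *mex-3* and *pos-1*, which lost the adjusted p-value in 3 and 5 settings, *oma-1*, which gained it, and the near-zero changes of *pie-1* and *spn-4*, which turned sign. *mex-5*, *mex-1*, *lin-41* and *oma-2* kept direction and call in all 13. Scaling by total counts without ribosomal RNA genes gave 2 genes higher (*oma-1*, adjusted p = 0.032) and lost *mex-3* (0.058), with *spn-4* at 0.0059. Leaving out single libraries gave 4 to 6 genes past the adjusted p-value, 0 to 1 higher and 4 to 5 lower. In these fits 0 to 2 of the members also passed the fold limit and 7 to 8 did not overlap. Over all genes, 30.9% to 38.1% passed the adjusted p-value in the same fits, and shares by direction, fold or overlap were not computed. Across them *pie-1* ranged from -0.016 to 0.057, at -0.013 without wildtype replicate 3 and -0.016 without mutant replicate 3. With the replicate block, 0 genes were higher, since *pos-1* had an adjusted p of 0.070, and no other call changed, while 36.7% of all genes passed. Within replicate numbers the differences of the log2 ratios kept their values, -0.55 and 0.29, with an exact p of 0.25, the smallest possible. Across leave-one-out fits these differences were -0.63 to -0.49 for *mex-5*/*mex-6* and 0.26 to 0.31 for *oma-1*/*oma-2*. A fold limit of 1 left 0 genes. The covariate for ribosomal RNA left 0 genes past the adjusted p-value, 0 higher, 0 lower and 0 past the fold limit, with *mex-1* at 0.17 and *pos-1* at -0.036. The covariate for muscle and intestine gave 4 genes past the adjusted p-value, 0 higher, 4 lower and 2 past the fold limit, with *pie-1* at -0.0071. The cause of these shifts was not tested. Both covariates differ between genotypes. Over all genes, 28.6% passed with DESeq2 (of 11699), 22.8% with no low count filter (of 19326) and 42.8% with total counts without ribosomal RNA genes. Reads shared between paralogs, the small number of libraries and the tie between ribosomal RNA share and genotype limit what the comparison can show.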
